A study of Mus musculus with 2 samples.

Results

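The enzymes described here make asparagine and serine and load folate with the one-carbon units that serine and glycine supply. They were taken from a fixed list of 10 genes that was chosen by pathway with their differences between these same 2 arrays already known, so the differences below are a description and carry no test. Of the 10 genes, 9 had probe sets assigned to that gene alone, 23 probe sets in all, out of 12393 genes measured on the arrays. Mthfd1l, the mitochondrial formyl-tetrahydrofolate synthetase gene, was the remaining one, and its expression was not analysed here.

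The cells were 2 clones of the mouse embryonic stem cell line E14tg2a, kept in normal growth medium with fetal bovine serum, glutamine and leukaemia inhibitory factor. The shDAB2 clone is clone 4 of cells stably carrying the plasmid shDAB2-285, which encodes a short hairpin RNA against Dab2, the gene of an endocytic adaptor protein. The vector clone is clone 9 of cells stably carrying the vector control plasmid. The total RNA of either clone was read on 1 Affymetrix 430A array, so each group is 1 clone on 1 array, and a difference between clones cannot be told apart from an effect of the hairpin.

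Asparagine synthetase (Asns) transfers an amide group of glutamine to aspartate, with ATP as the energy source. Serine is built from a glycolytic intermediate in a chain of steps, catalysed in turn by phosphoglycerate dehydrogenase (Phgdh), phosphoserine aminotransferase (Psat1) and phosphoserine phosphatase (Psph). Serine hydroxymethyltransferase then moves a carbon from serine to tetrahydrofolate and leaves glycine, in mitochondria by Shmt2 and in the cytosol by Shmt1. The glycine decarboxylase Gldc, part of the mitochondrial glycine cleavage system, releases a further one-carbon unit. Mthfd2 oxidises the loaded folate in mitochondria. Mthfd1 has dehydrogenase and cyclohydrolase activities in the cytosol, and a synthetase activity besides. In the cytosol the carbon goes into purines and thymidylate. In mammalian cells short of amino acids, the transcription factor ATF4 is known to induce Asns, Phgdh, Psat1, Shmt2 and Mthfd2 among other genes.

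The promoters of the 3 genes with the largest differences, Asns, Psat1 and Mthfd2, are shown because Asns holds a well-studied ATF4 element and the others can be read beside it. Each window runs from 250 bases before to 50 bases after an annotated transcription start, 5′ to 3′ on the strand of the gene, from RefSeq on GRCm38.p6. Capitals mark matches to TGATGNAA, the core of the C/EBP-ATF response element, and to GTTACA, the companion element of the ASNS promoter in human cells, which was added to the search after the windows had been read.
Asns (chr6:7693160-7693459, minus strand): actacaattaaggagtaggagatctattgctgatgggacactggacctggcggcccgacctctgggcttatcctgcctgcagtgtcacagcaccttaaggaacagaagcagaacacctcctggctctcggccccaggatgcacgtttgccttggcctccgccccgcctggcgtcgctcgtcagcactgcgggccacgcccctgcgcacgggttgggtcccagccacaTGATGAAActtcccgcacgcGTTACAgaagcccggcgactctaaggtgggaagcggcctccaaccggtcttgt
Psat1, upstream start (chr19:15925010-15925309, minus strand): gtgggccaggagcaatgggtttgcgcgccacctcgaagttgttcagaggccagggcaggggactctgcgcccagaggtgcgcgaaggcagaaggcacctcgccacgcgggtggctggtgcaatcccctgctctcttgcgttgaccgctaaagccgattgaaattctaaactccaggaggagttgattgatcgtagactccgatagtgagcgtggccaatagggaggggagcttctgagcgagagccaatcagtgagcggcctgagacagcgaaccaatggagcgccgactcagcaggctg
Psat1, downstream start (chr19:15924573-15924872, minus strand): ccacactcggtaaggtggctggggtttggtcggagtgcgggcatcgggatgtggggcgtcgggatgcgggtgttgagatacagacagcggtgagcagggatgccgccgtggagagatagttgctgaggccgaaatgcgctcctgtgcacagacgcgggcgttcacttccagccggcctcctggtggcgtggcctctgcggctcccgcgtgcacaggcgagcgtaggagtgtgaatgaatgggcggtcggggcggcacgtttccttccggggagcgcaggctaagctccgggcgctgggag
Mthfd2 (chr6:83317555-83317854, minus strand): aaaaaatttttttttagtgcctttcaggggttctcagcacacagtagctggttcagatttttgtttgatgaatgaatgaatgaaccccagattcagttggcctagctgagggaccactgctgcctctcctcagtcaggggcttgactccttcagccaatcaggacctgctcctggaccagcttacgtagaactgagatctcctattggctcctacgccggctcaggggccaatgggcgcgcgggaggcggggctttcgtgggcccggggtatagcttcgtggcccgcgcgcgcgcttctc

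All 10 genes had an entry among the promoter windows, in 11 windows, since Psat1 has 2 annotated starts. TGATGNAA, searched on both strands, was found in 1 of the 11 windows, that of Asns, as TGATGAAA beginning 23 bases upstream of the start. Over all 32851 windows of the same length 3.97% held it. GTTACA followed it in Asns after 12 bases and spanned the start. It was in no other enzyme window, against 8.25% of all windows on either strand. The E-box CACGTG, a palindrome, was in 0 of the 11 windows and in 7.15% of all. These windows leave out introns and distal sequence.

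The deposited values are log2 expression values made with RMA, which corrects background, quantile-normalizes the arrays and combines the probes of each probe set. The difference given throughout is the shDAB2 clone minus the vector clone on the log2 scale. A gene was represented by its brightest probe set, and it was above the floor where at least 1 of its 2 values was 6.62 or more, which is the median over both arrays. All 9 measured genes and all 23 probe sets were above that floor. RMA is known to understate differences of dim probe sets. In 2502 genes that 2 or more probe sets measured above the floor, the SD of the difference from 1 probe set was 0.11, which covers probe noise and transcript variants but not the spread between cultures or clones. In RNA from whole cultures, fewer cells expressing a gene and less RNA per cell cannot be told apart.

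Of the 9 genes, 8 read lower and 1 read higher in the shDAB2 clone, with a median difference of -0.65 against 0.00 over the 7269 genes above the floor. Lower by any amount described 49.3% of those 7269 genes. At least 1.5-fold lower were 5 of the 9, namely Asns, Psat1, Mthfd2, Shmt2 and Phgdh, beside 1.62% of all genes above the floor. At least 2-fold lower were 3 of the 9, namely Asns, Psat1 and Mthfd2, beside 0.179% of all. None of the 9 was 1.5-fold higher, a size that 0.578% of all genes reached. Nothing is read from these shares, since the same contrast was known when the genes were chosen.

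**Figure D1:**
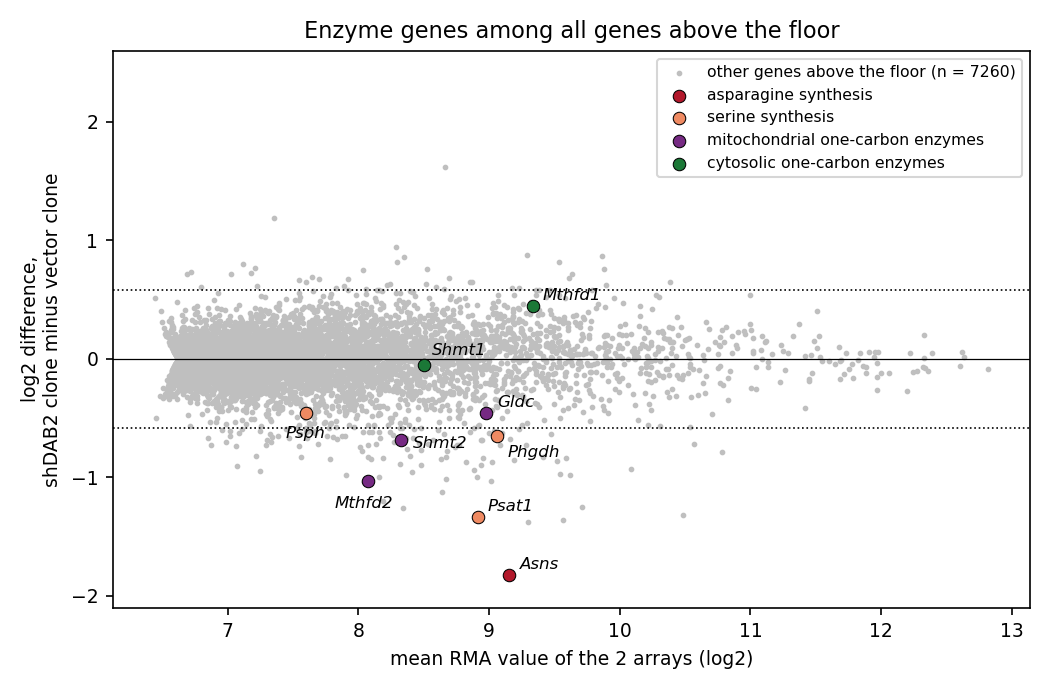
Log2 difference (shDAB2 clone minus vector clone, y axis) against the mean RMA value of the 2 arrays (log2, x axis) for each gene above the floor, by its brightest probe set, with the 9 enzyme genes coloured by role and dotted lines at 1.5-fold. Asns lies lowest of all 7269 genes at -1.82, and Mthfd1 at 0.44 is the one enzyme gene above 0.

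Asns read 8.24 in the shDAB2 clone, against 10.07 in the vector clone on probe set 1451095_at, a difference of -1.82 or 3.54-fold lower. Its other probe set, 1433966_x_at, read 7.72 in the shDAB2 clone, against 9.52 in the vector clone, a difference of -1.81. The gene was thus lower to nearly the same extent on both probe sets. On the linear scale the brighter probe set had 303 units in the shDAB2 clone, against 1073 in the vector clone. The difference had rank 1 from the bottom among the 7269 genes above the floor. For the 500 probe sets closest in signal to 1451095_at, the SD of the difference was 0.32.

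All 3 serine synthesis genes were lower, on 7 of 7 probe sets, beside 49.3% of all genes above the floor lower by any amount. The middle step differed most. Psat1, which puts the amino group on, read 8.25 in the shDAB2 clone, against 9.58 in the vector clone, a difference of -1.33 or 2.52-fold lower, at rank 4 from the bottom of all genes above the floor. Its second probe set, which can match several transcripts (_s_at), read 7.62 in the shDAB2 clone, against 8.45 in the vector clone, a difference of -0.83. Both are lower, but they are 0.50 apart, several times the SD of 0.11 for 1 probe set.

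Phgdh, the entry step that draws carbon from glycolysis, was measured by 4 probe sets. Its brightest read 8.73 in the shDAB2 clone, against 9.39 in the vector clone, a difference of -0.65 or 1.57-fold lower. The others differed by -0.80, -0.47 and -0.30, so 2 of the 4 passed 1.5-fold. All 4 are of the _x_at type, in which some probes can match other sequences, so the size for Phgdh is less certain than its direction on these arrays. Psph, which removes the phosphate in the last step, had 1 probe set. It read 7.37 in the shDAB2 clone, against 7.83 in the vector clone, a difference of -0.46 or 1.37-fold lower. The 500 probe sets closest to it in signal had differences with an SD of 0.22.

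**Figure D2:**
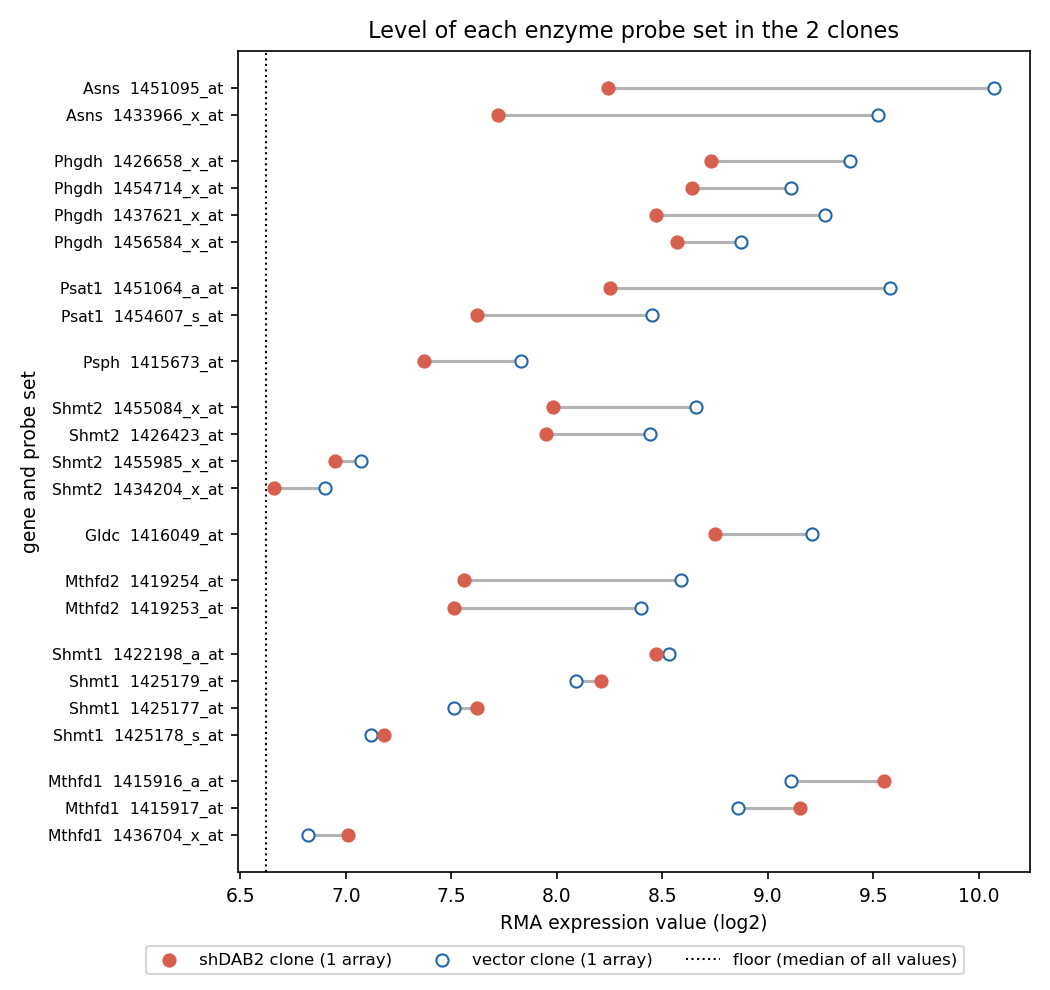
RMA expression value (log2, x axis) of each of the 23 probe sets in the shDAB2 clone (filled) and the vector clone (open), 1 array each, with a grey line joining the 2 values and the floor dotted. The shDAB2 value lies to the left of the vector value on all probe sets of Asns, Phgdh, Psat1, Psph, Shmt2, Gldc and Mthfd2, and to the right on all 3 of Mthfd1.

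All 3 measured mitochondrial one-carbon genes were also lower, on 7 of 7 probe sets, which are repeat measurements of those genes. Mthfd2, the dehydrogenase and cyclohydrolase of mitochondria, read 7.56 in the shDAB2 clone, against 8.59 in the vector clone, a difference of -1.03 or 2.05-fold lower. Its second probe set read 7.51 in the shDAB2 clone, against 8.40 in the vector clone, a difference of -0.90. It had rank 11 from the bottom, and both probe sets are of the plain _at type.

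Shmt2, which passes the serine carbon to mitochondrial folate, read 7.98 in the shDAB2 clone, against 8.66 in the vector clone on its brightest probe set, a difference of -0.68 or 1.60-fold lower. The next, 1426423_at, read 7.95 in the shDAB2 clone, against 8.44 in the vector clone, a difference of -0.49. The remaining probe sets of Shmt2, nearer the floor, differed by -0.11 and -0.24. All 4 were lower, but only the brightest passed 1.5-fold. It is of the _x_at type, while the plain 1426423_at was 1.40-fold lower. Gldc, which splits glycine, had 1 probe set that read 8.75 in the shDAB2 clone, against 9.21 in the vector clone, a difference of -0.46 or 1.37-fold lower.

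The cytosolic one-carbon enzymes, Mthfd1 and Shmt1, did not share this direction. Mthfd1, the cytosolic enzyme with synthetase, cyclohydrolase and dehydrogenase activities, read 9.55 in the shDAB2 clone, against 9.11 in the vector clone, a difference of 0.44 or 1.36-fold higher. Its other probe sets differed by 0.29 and 0.18, so all 3 were higher. Shmt1, the cytosolic serine hydroxymethyltransferase gene, read 8.47 in the shDAB2 clone, against 8.53 in the vector clone on its brightest probe set, a difference of -0.05. The other 3 probe sets of Shmt1 differed by 0.12, 0.11 and 0.06, so its direction is not settled and each value lies close to the SD of 0.11 for 1 probe set or below it. Over both cytosolic one-carbon genes 1 of 7 probe sets was lower and 6 were higher, from -0.05 to 0.44. The mitochondrial one-carbon genes ran from -1.03 to -0.11. This grouping by compartment covers the one-carbon genes only. It leaves out Asns and the serine synthesis genes, which were lower on all their probe sets. The grouping was made with these values known, and the difference between its 2 groups was not tested.

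Counted by probe set, 17 of the 23 were lower and 6 higher. The share of all probe sets lower by any amount was not computed, and the share of genes was 49.3%. At least 1.5-fold lower were 9 of the 23, beside 1.53% of all probe sets above the floor that belong to 1 gene. Probe sets of 1 gene measure the same RNA on the same arrays and are not replicates. Of the 7 genes with several probe sets, 6 had the same sign on all of them, and the exception was Shmt1. In 6 of the 7 the brightest probe set differed by more in size than the dimmest, the exception being Shmt1 again.

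**Figure D3:**
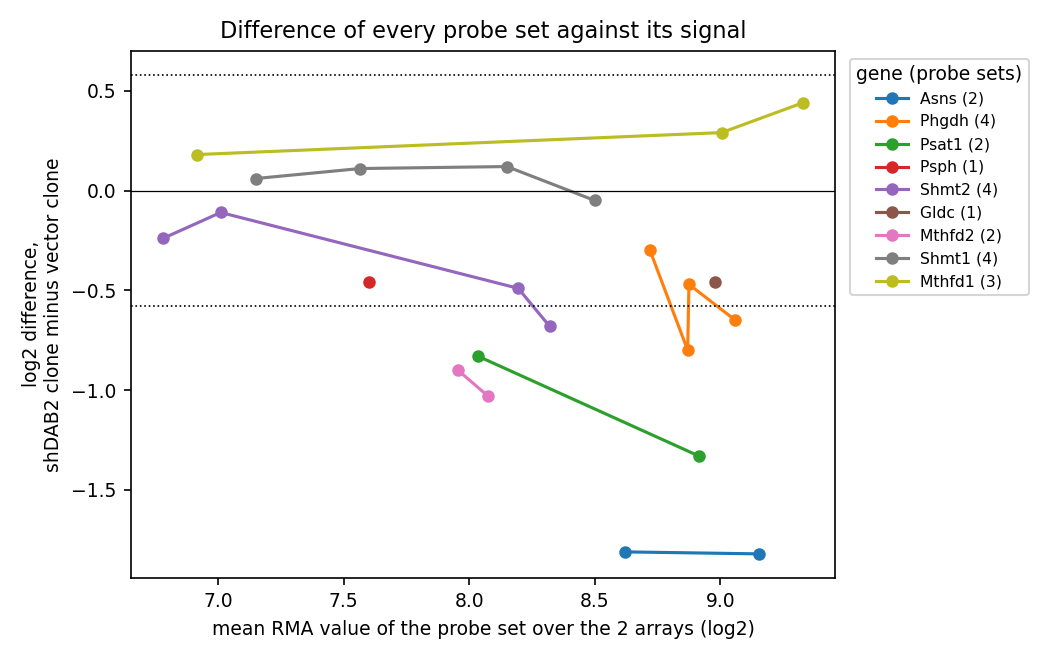
Log2 difference (shDAB2 clone minus vector clone, y axis) of each probe set against its mean RMA value (log2, x axis), with lines joining the probe sets of 1 gene and dotted lines at 1.5-fold. The lines of Psat1, Mthfd2 and Mthfd1 move away from 0 towards brighter probe sets, Shmt2 runs from -0.24 on its dimmest probe set over -0.11 to -0.68 on its brightest, Asns stays level near -1.8, and the 4 Phgdh probe sets spread from -0.80 to -0.30 at similar signal.

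Atf4, the factor known to induce several of these genes, differed by -1.37, -0.59 and -0.15 on its 3 probe sets, in order of falling signal. The part of Atf4 in the enzyme differences was not tested. Dab2 was dim, at 6.33 in the shDAB2 clone, against 6.64 in the vector clone on its brightest probe set (-0.31), so it reached the floor of 6.62 in the vector clone alone. Its other probe sets, below the floor in both clones, differed by -0.05 and -0.01. At this signal the size of any lowering of Dab2 is uncertain.

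Genes next to these enzymes in metabolism were taken from 6 lists, whose medians ran from -0.11 to 0.14. The list of amino acid enzymes around aspartate, glutamine and proline had 8 of 10 genes lower and 2 higher, with a median of -0.11, and 1 was at least 1.5-fold lower. That gene was Aldh18a1, which makes the proline precursor pyrroline carboxylate, at 6.69 in the shDAB2 clone, against 7.34 in the vector clone (-0.65). It was lower on all 5 probe sets, by -0.91 to -0.12, but those at -0.25 and -0.12 were below the floor in both clones. Gpt2, a mitochondrial alanine aminotransferase gene, differed by -0.38 and by -0.67 on its second probe set. Asrgl1, an asparaginase gene acting opposite to Asns, differed by -0.25, and Glud1, glutamate dehydrogenase, by -0.20.

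Genes that handle folate itself were close to even. Of 10 with a probe set, 7 were above the floor, 2 of them lower and 5 higher, with a median of 0.09 and none past 1.5-fold. The folate receptor gene Folr1 differed by -0.28, the reduced folate carrier gene Slc19a1 by 0.22, Mtrr, which reactivates methionine synthase, by 0.14, and Fpgs, which adds glutamate tails to folate, by 0.11. In the glycine cleavage and threonine list 2 of 5 genes were measured. Gcsh, the carrier protein that works with Gldc, read 9.44 in the shDAB2 clone, against 9.18 in the vector clone (0.26), the opposite sign to Gldc, and Dld, the shared dehydrogenase subunit, differed by -0.05.

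Genes that use the products were mixed. The serine use list had 3 of 6 genes lower and 3 higher, with a median of -0.04. Its phosphatidylserine synthase gene Ptdss1 stood at 0.28, but at -0.08 on its lowest probe set. Ptdss2 stood at -0.14, and the membrane protein genes Serinc1 and Serinc3 both at -0.20. Over all their probe sets Serinc1 ran from -0.20 to 0.05 and Serinc3 from -0.48 to 0.03. The methionine cycle and transsulfuration list had 3 of 6 lower and a median of -0.01. Cth, cystathionine gamma-lyase, which makes cysteine and is another known ATF4 target, was its 1 gene past 1.5-fold, at 8.31 in the shDAB2 clone, against 8.91 in the vector clone (-0.60). Ahcyl1 differed by -0.24, Ahcy, which clears S-adenosylhomocysteine, by 0.22, and Mat2b by 0.16.

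Purine synthesis consumes the one-carbon units that Mthfd1 prepares. The list used here covers the pathway as a whole, not only the steps that use those units. Of its 8 genes above the floor, 3 read lower and 5 higher, with a median of 0.14 and none past 1.5-fold. Gart stood at -0.07, -0.07 and 0.30 on its probe sets, in order of falling signal. Atic had no probe set assigned to it alone. Ppat, the amidotransferase of the committed step, stood at 0.47 and Prps2 at 0.41, but Prps2 at only 0.06 on its second probe set. Adss, on the branch to AMP, stood at -0.38 and Paics at -0.32, with Paics at -0.05 on its second.

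**Figure D4:**
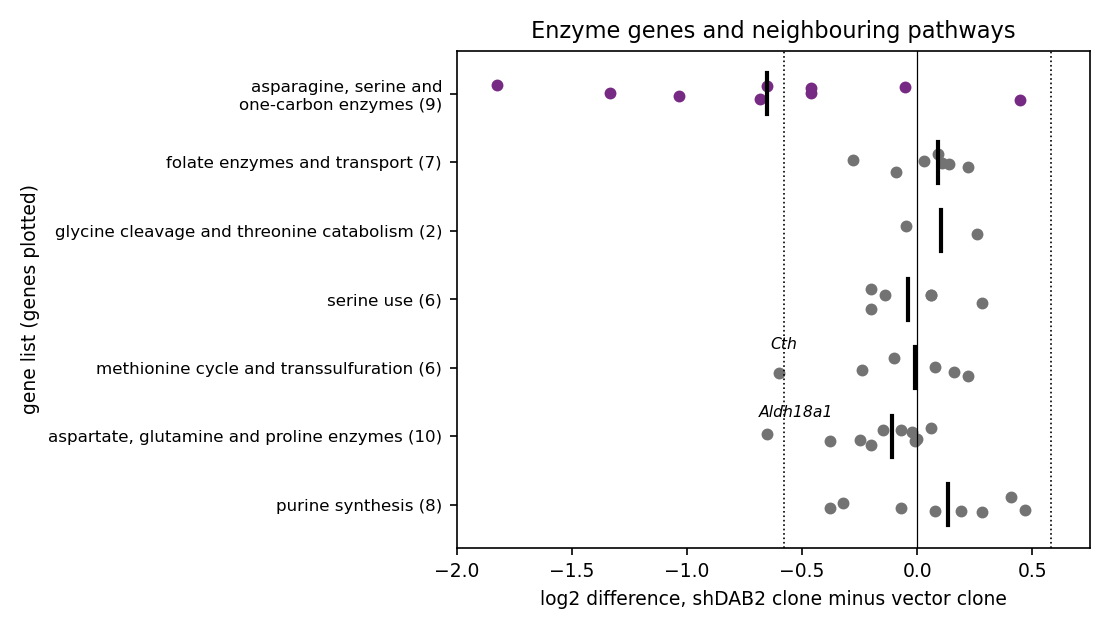
Log2 difference (shDAB2 clone minus vector clone, x axis) of each gene above the floor, in the enzyme list and in 6 lists of neighbouring pathways (y axis, genes plotted in brackets), with black bars at the medians and dotted lines at 1.5-fold. The enzyme median is -0.65 and the others run from -0.11 to 0.14, with Aldh18a1 and Cth the neighbouring genes past 1.5-fold.

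The labelled cell type was checked on marker genes. All 9 measured embryonic stem cell markers were above the floor, 4 lower and 5 higher, with differences from -0.24 to 0.61. Their summed linear signal was 10396 in the shDAB2 clone, against 10306 in the vector clone. The brightest of them, Dppa5a, weighed most in that sum, at 12.29 in the shDAB2 clone, against 12.37 in the vector clone. Pou5f1 differed by 0.10, Sox2 by -0.17, Nanog by -0.02 and the reference gene Actb by -0.06. Fgf4 was the 1 stem cell marker past 1.5-fold, at 8.90 in the shDAB2 clone, against 8.29 in the vector clone (0.61, and 0.34 on its second probe set). All 8 fibroblast markers, 7 of 8 primitive endoderm markers and 4 of 6 neural markers were below the floor. Of 9 trophectoderm markers 5 were above it and all 5 were lower by some amount, beside 49.3% of all genes above the floor. Krt7 differed by -0.82 and Tfap2c by -0.47, but Hand1 by only -0.02. The summed linear signal over the 9 was 2799 in the shDAB2 clone, against 5046 in the vector clone, most of it from the keratin genes Krt18 (-1.32) and Krt8 (-0.72). The defining regulators Cdx2, Eomes, Elf5 and Gata3 were below the floor in both clones. The part of these markers in the enzyme differences was not tested.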

How the data were processed

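RNA of 1 shDAB2 clone and 1 vector clone was measured on Affymetrix mouse 430A arrays. The deposited log2 values were made with RMA, per the submitters' processing notes. Those notes give no version, no probe set definitions and no list of the arrays normalized together. The log base was taken from the values, whose lowest and highest were 5.67 and 12.81 (shDAB2 clone) and 5.65 and 12.86 (vector clone). No depth applies, and the number of arrays limits the precision.

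Of 22626 probe sets, 20380 had 1 gene in the platform annotation and were used, 691 had several and 1555 were unnamed here. Groups came from the sample titles. With 1 sample per group no test exists and no p-value is given. Differences are described by size, at 1.5-fold and 2-fold. The steps were tested on simulated data. Named genes are all members, up to 4 genes above the floor with the largest absolute difference per list, Dab2, Atf4, Pou5f1, Sox2, Nanog and Actb; any other named gene was chosen after its value was seen. Members, lists and this rule were chosen with earlier results of these data known. The alternatives tried were cyclic loess with limma 3.58.1 under R 4.3.3, arrays centred on their medians, a gene's mean over its probe sets, removal of _s_at, _x_at and _a_at probe sets, no floor, a floor at the upper quartile of 7.33, and a demand that every probe set pass. Python 3.11.15 and pandas 2.3.3 were used.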

Additional observations from a re-analysis of the deposited data

How the results depend on the processing

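Under each of cyclic loess, centring on the median, no floor and the upper-quartile floor, 5 enzyme genes were at least 1.5-fold lower, 3 at least 2-fold lower and 9 probe sets at least 1.5-fold lower, and the enzyme median ran from -0.69 to -0.64. Among all genes, 114 of 3871 were at least 1.5-fold lower at the upper-quartile floor, against 118 of 7269 at the main floor. The mean of all probe sets left 3 genes 1.5-fold lower, 2 genes 2-fold lower and a median of -0.46. Phgdh then stood at -0.56 and Shmt2 at -0.38. Without _s_at, _x_at and _a_at probe sets 7 genes were left, as Phgdh and Psat1 had no other kind, with 2 genes and 3 probe sets 1.5-fold lower, 2 genes 2-fold lower and a median of -0.46. Shmt2, at -0.49 there, no longer passed 1.5-fold. Requiring every probe set to pass left 3 genes at 1.5-fold and 1 at 2-fold, by construction. The glycine cleavage list held 1 gene without those probe sets (-0.05) and 1 at the upper-quartile floor (0.26). The other 5 list medians moved by less than 0.11 under each alternative that gave a value. The mean of probe sets gives no count of probe sets. Of 144 values of named genes 126 moved by less than 0.11, 18 by more, and 0 of those past 1.5-fold changed sign. No paired analysis was possible because each group holds 1 sample. For the same reason no sample could be left out.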

Other observations

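Ppat and Paics, which encode enzymes of purine synthesis, differed in opposite directions on their brightest probe sets. They are neighbours on chromosome 5, on opposite strands, with annotated starts 276 bases apart in RefSeq on GRCm38.p6. Ppat read 8.28 in the shDAB2 clone, against 7.81 in the vector clone (0.47), and 0.33 higher on its other probe set. Paics read 10.38 in the shDAB2 clone, against 10.71 in the vector clone (-0.32). Its other probe sets both differed by -0.05, less in size than the SD of 0.11 for 1 probe set. The lower reading of Paics thus rests on 1 probe set. The difference between the genes was not tested.

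The thymidylate synthase gene Tyms, which uses one-carbon folate in DNA synthesis, was below the floor on all 3 of its probe sets. The brightest of these read 6.21 in the shDAB2 clone, against 6.24 in the vector clone, a difference of -0.03.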
